A study of Mus musculus with 2 samples.

Results

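The Bcl2 family genes described here are Bcl2, Bcl2a1b, Bcl2a1d, Bcl2l1, Bcl2l11, Mcl1, Bax, Bak1, Pmaip1 and Bbc3, chosen by symbol. All 10 were found among the 27998 genes listed, and each had at least 50 unique molecular identifiers (UMIs, 1 per captured RNA molecule) in both libraries. The cells were γδ T lymphocytes sorted as CD3+ and TCRγδ+ from untreated wild type C57BL/6J mice aged 8 weeks, 1 droplet 3′ library from the liver and 1 from the thymus, where cells carrying CD4 or CD8 were depleted with beads before the sort. Cells came from several mice, and how these were divided between or pooled within the libraries is not given in the sources used here. The analysis kept 8075 of 8658 hepatic barcodes and 4351 of 4541 thymic barcodes, those with 800 to 4000 detected genes and at most 6% mitochondrial UMIs. The kept cells held 24168037 hepatic and 17064752 thymic UMIs, with a median of 2741 and 3271 per cell.

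These proteins decide whether mitochondria release the factors that activate caspases. Bcl2, Bcl-xL (encoded by Bcl2l1), Mcl1 and A1 (encoded by the Bcl2a1 genes) hold the pore-forming effectors Bax and Bak1 in check, while the BH3-only proteins Bim (Bcl2l11), Noxa (Pmaip1) and Puma (Bbc3) bind the protective proteins and release the effectors. In the thymus, Bim is known for its part in removing strongly stimulated thymocytes, and Bcl2 is known to be sustained by signals of interleukins 7 and 15 in mature lymphocytes.

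The Bcl2a1 genes are near-identical copies on chromosome 9, so their positions and letters are given before their counts. On GRCm38, the build of the deposited files (mm10), Bcl2a1b (ENSMUSG00000089929) lies at chr9:89199209-89207827 on the plus strand, and Bcl2a1d (ENSMUSG00000099974) lies at chr9:88723285-88731914 on the minus strand. The copies Bcl2a1a, at chr9:88956900-88962419, and Bcl2a1c, at chr9:114330135-114330578, are both on the plus strand. In the GENCODE transcripts, Bcl2a1b and Bcl2a1d were identical at 810 of 817 aligned bases (99.1%), and Bcl2a1a and Bcl2a1b at 802 of 817 (98.2%). Over the last 400 bases, where 3′ libraries collect their reads, 28.6% of the 301 windows of 100 bases in Bcl2a1b were also found unchanged in another copy, against 53.2% in Bcl2a1d and 24.6% in Bcl2a1a. For windows of 150 bases, the read length per the labels, the shares were 10.8%, 20.3% and 9.56%. A read from such a window cannot be placed on 1 copy, and how the submitters' counting treated it is not given in the sources used here. Each copy's count is therefore uncertain, and the sum of the copies is given beside it. Bcl2a1b also shares 401 exonic bases (49.1% of its exons) on the same strand with Gm29094, which had 1 UMI in the hepatic and 0 in the thymic cells.

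A shared stretch before the annotated start of these copies is shown because Bcl2a1b and Bcl2a1d varied together while Bcl2a1a did not reach their level. RefSeq promoters on GRCm38.p6 gave it for 3 copies, written 5′ to 3′ on the strand of each gene at chr9:89199042-89199164 (Bcl2a1b), chr9:88956733-88956855 (Bcl2a1a) and chr9:88731915-88732031 (Bcl2a1d, minus strand). Capitals mark the 6 bases of Bcl2a1b that have no counterpart in Bcl2a1d, which lie in a repeat, so that the alignment could place them elsewhere in it. No other base differed, and the stretch in Bcl2a1a was identical to that in Bcl2a1b. It was cut from the first to the last run of bases found in these 3 copies, so its likeness was partly set by that cut. It adjoins the annotated start in Bcl2a1d but ends short of it in Bcl2a1b and Bcl2a1a. Its part in the levels was not tested.
Bcl2a1b: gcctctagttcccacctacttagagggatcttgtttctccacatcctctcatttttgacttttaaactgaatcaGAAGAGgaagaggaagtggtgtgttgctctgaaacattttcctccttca
Bcl2a1a: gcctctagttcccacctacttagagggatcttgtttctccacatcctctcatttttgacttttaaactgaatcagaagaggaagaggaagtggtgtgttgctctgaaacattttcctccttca
Bcl2a1d: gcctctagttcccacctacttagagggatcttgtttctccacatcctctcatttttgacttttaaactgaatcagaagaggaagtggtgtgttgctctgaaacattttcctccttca

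Both libraries were clustered together without the 10 genes and their pathway lists, and clusters were named from marker lists. C1-like cells (2424 thymic) had the immature thymic markers Cd24a, Ccr9, Hes1, Sox13 and Tox2. C3-like cells (1090 hepatic, 183 thymic) had the precursor markers Nt5e, Dapl1, Nsg2, Sidt1 and Ly6c2, and C6-like cells (791 hepatic, 169 thymic) expressed Il17a, Il17f, Ccr6, Il23r and Il1r1. The liver also held 2865 C4-like cells (Socs2, Cd28, Gimap3, Cd40lg), 2726 C5-like cells (Tyrobp, Gzmb, Ccl4, Ncr1), 281 C7-like cells (Klra6, Klra7, Lgals1, Klrg1, S1pr5), 105 C8-like cells (Lyz2, Ifitm3, Apoe, Cd74) and 72 interferon-like cells. Cycling-like cells numbered 542 in the thymus and 59 in the liver. A cluster of 1017 thymic and 82 hepatic cells was led by S1pr1 and Cd200 but also by 3 hemoglobin genes, so it has no class name and is called the S1pr1-Cd200 cluster. A level is given in CPM, the gene's share of all UMIs from one class and library times 1000000, with an exact Poisson 95% interval. With 1 library per tissue there was no replicate and no test, and all intervals cover counting error only.

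The T cell part of the label γδ T cell was checked with Cd3e, Cd3d, Cd3g, Cd247 and Thy1, which αβ T cells also carry. The summed level of these genes was 3176 to 5553 CPM in 13 of the 14 class and library groups. It was 1074 CPM in the C8-like cells, whose leading genes were the macrophage genes Lyz2, Apoe, C1qa and C1qb. The C8-like values therefore stand for cells whose leading genes go against the label. Immediate-early and heat shock genes (13 genes, such as Fos, Jun and Hspa1a) summed to 20639 CPM in the hepatic and 3782 CPM in the thymic cells. Cycling-like hepatic cells, only 59, had 634 CPM of the 5 B cell markers, against at most 103 CPM in the other groups, and 2622 CPM of the 4 C8 markers. Their part in the levels of that group was not tested. The libraries shared 60 barcodes, 56 of them among the kept cells.

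Across all kept cells, the protective genes Bcl2, Bcl2a1b, Bcl2a1d and Bcl2l1 and the BH3-only gene Pmaip1 were higher in the liver library, whereas the protective gene Mcl1 and the BH3-only gene Bcl2l11 were higher in the thymus library. Of the 10 genes, 5 were at least 2-fold higher in hepatic cells (Bcl2a1b, Bcl2a1d, Pmaip1, Bcl2l1 and Bcl2) and 0 were at least 2-fold lower. Over the 10869 genes with at least 50 UMIs, 12.1% were at least 2-fold higher and 16.9% at least 2-fold lower. The median log2 ratio was 0.52 over the 10 genes and -0.11 over all. Bcl2a1b had 139 CPM in hepatic and 14.9 CPM in thymic cells, a ratio of 9.29 (exact binomial 95% interval 8.18 to 10.6). Bcl2a1d was 5.44-fold higher (4.61 to 6.46), Pmaip1 2.86-fold (2.40 to 3.43), Bcl2l1 2.68-fold (2.32 to 3.10) and Bcl2 2.19-fold (2.10 to 2.29). Bcl2l11 had 54.3 CPM in hepatic and 102 CPM in thymic cells, and the thymic level was 1.87-fold the hepatic one. Bax, Bak1 and Bbc3 had hepatic to thymic ratios of 1.09, 1.05 and 1.10, and the sign of these small differences turned under other scalings. With mitochondrial and ribosomal-protein genes left out of the total, 4 genes were at least 2-fold higher and 1 (Bcl2l11) at least 2-fold lower. Leaving out the C8-like cells kept the count at 5. The tissue totals mix class makeup with the level within a class, and the immediate-early and heat shock genes moved with the tissue (11 of 13 at least 2-fold higher in the liver), whose part in the result was not tested.

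**Figure D1:**
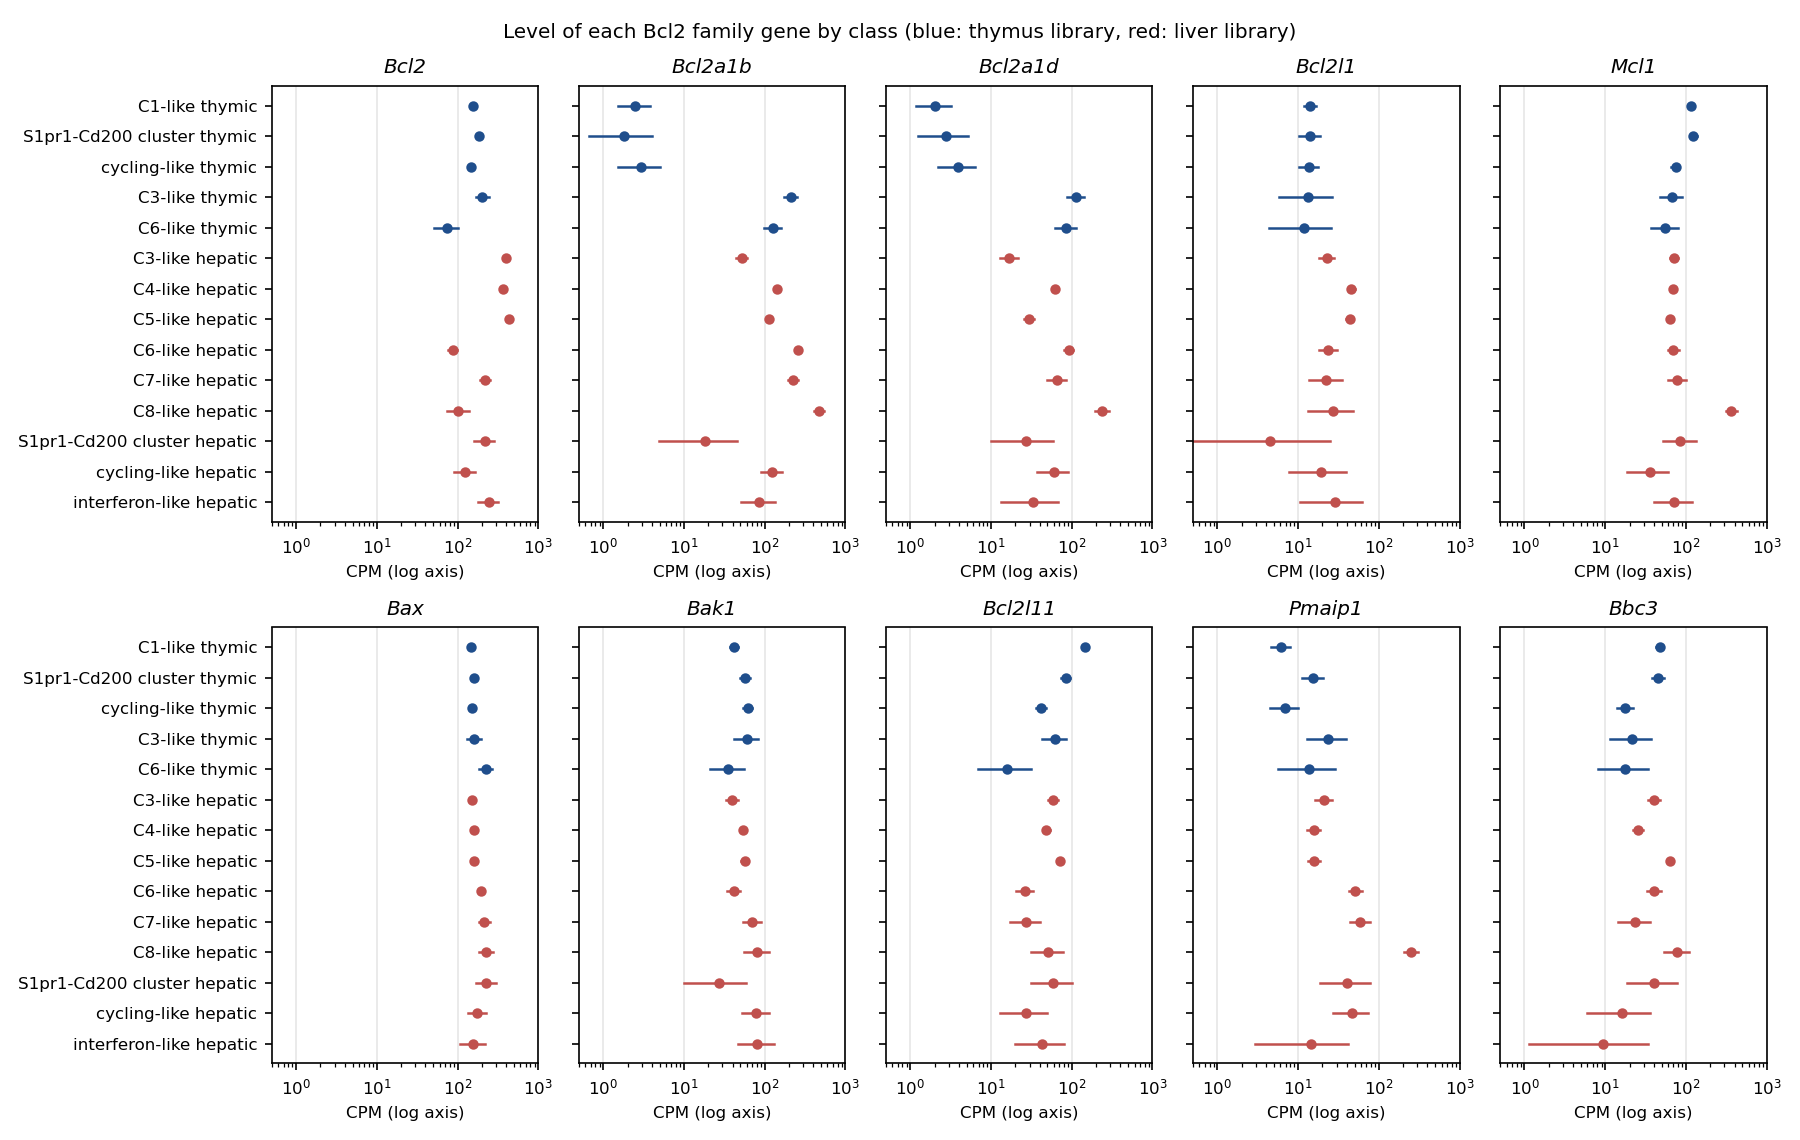
Level of each of the 10 genes in CPM (log axis) in the 14 class and library groups, blue for thymus and red for liver. Points are CPM of summed UMIs and bars exact Poisson 95% intervals. Bcl2a1b and Bcl2a1d lie under 4 CPM in C1-like, S1pr1-Cd200 and cycling-like thymic cells and above 80 CPM in C3-like and C6-like thymic cells, while Bax stays between 145 and 226 CPM in every group.

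**Figure D2:**
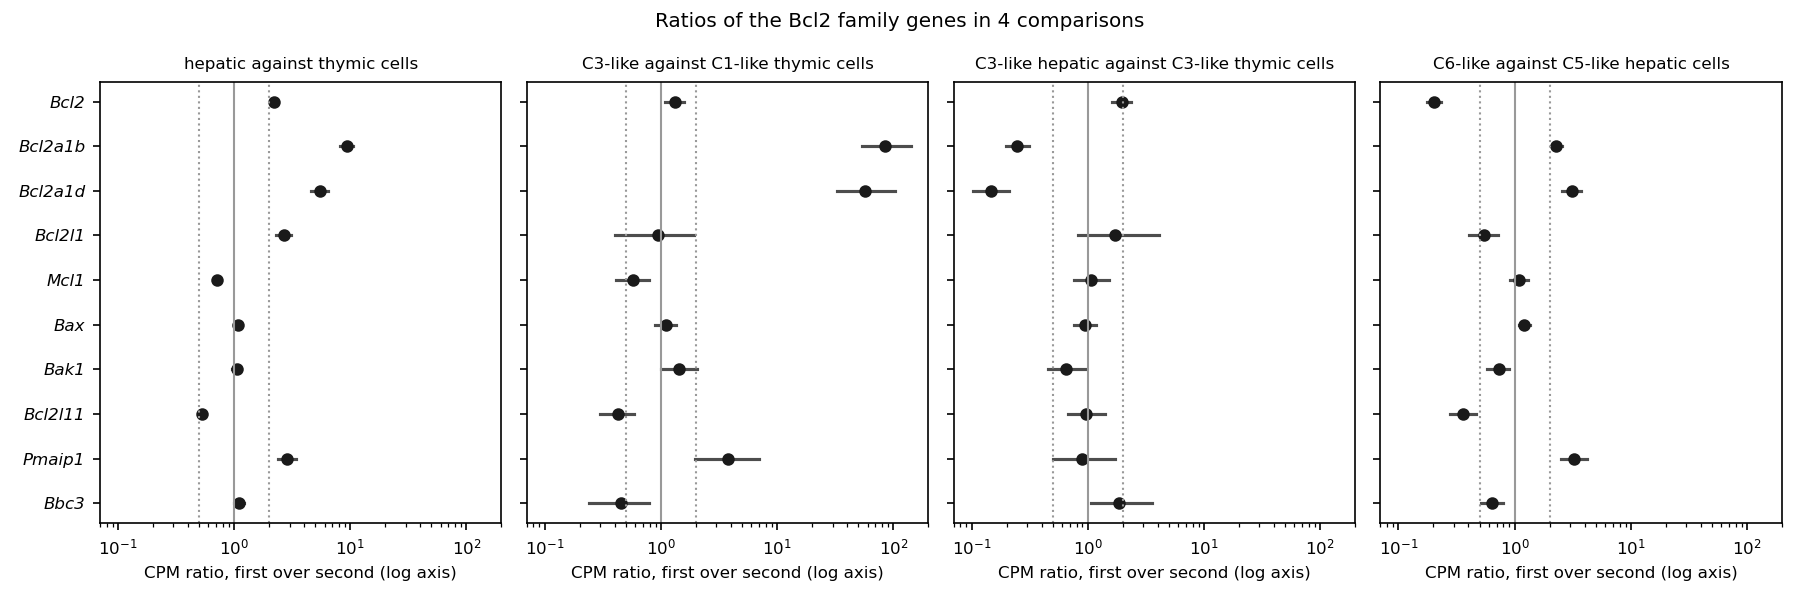
CPM ratio (log axis) of each gene in 4 comparisons, named in the panel titles as first against second. Points are ratios, bars exact binomial 95% intervals, the solid line a ratio of 1 and the dotted lines the limits of 2-fold. Bcl2a1b and Bcl2a1d are the only genes above 50-fold, in C3-like against C1-like thymic cells.

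Bcl2, the founding protective member (chr1:106538178-106714274, minus strand), was highest in the hepatic C5-like cells at 429 CPM (415 to 444) and C3-like cells at 397 CPM (377 to 418), whose intervals overlap, followed by C4-like cells at 361 CPM (348 to 374). The interferon-like (242 CPM), C7-like (219 CPM) and S1pr1-Cd200 hepatic cells (216 CPM) did not differ from the C3-like thymic cells (203 CPM, 169 to 242) or the S1pr1-Cd200 thymic cells (187 CPM, 172 to 202) beyond counting error between neighbours in the order. C1-like thymic cells had 153 CPM (145 to 162) and cycling-like thymic cells 146 CPM (134 to 158). Cycling-like and C8-like hepatic cells had 123 and 102 CPM, and the lowest levels were those of the IL-17 class, at 86.6 CPM (75.4 to 98.9) in the liver and 73.0 CPM (51.4 to 101) in the thymus. Thus the order ran from C5-like and C3-like hepatic cells at the top to C6-like cells of both tissues at the bottom. After each cell was thinned to 1500 UMIs, 44.1% of C5-like hepatic cells carried a Bcl2 UMI, against 10.1% of C6-like hepatic cells (1732 of 2726 and 158 of 791 cells before thinning). In C3-like cells, present in both tissues, the hepatic level was 1.95-fold the thymic one (1.62 to 2.37), and in C6-like cells 1.19-fold (0.834 to 1.73).

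Bcl2a1b and Bcl2a1d, which encode the protective protein A1, separated the thymic classes most widely. Bcl2a1b had 2.47 CPM (1.53 to 3.77) in C1-like, 1.83 CPM (0.672 to 3.99) in S1pr1-Cd200 and 2.92 CPM (1.51 to 5.11) in cycling-like thymic cells, and these 3 intervals overlap. It had 210 CPM (175 to 250) in C3-like and 126 CPM (97.3 to 161) in C6-like thymic cells. In the same order of classes, Bcl2a1d had 2.00, 2.75, 3.90, 113 and 84.9 CPM. The C3-like to C1-like ratio was 85.0 (53.3 to 142) for Bcl2a1b and 56.7 (32.9 to 103) for Bcl2a1d. Of 183 C3-like thymic cells, 58 had a Bcl2a1b UMI, and after thinning the share was 19.7% (exact binomial 95% interval 14.2% to 26.2%). In C1-like cells the thinned share was 0.454% (0.227% to 0.812%), at a median depth of 3176 UMIs against 3100 in the C3-like cells. The C5 markers Tyrobp, Gzmb, Ccl4 and Ncr1 summed to 670.5 CPM in C3-like and 36.7 CPM in C1-like thymic cells, and the stress list to 6943 and 3890 CPM. The part of either in the result was not tested.

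In the liver, Bcl2a1b was highest in the C8-like cells at 478 CPM (413 to 549), then in C6-like cells at 263 CPM (243 to 284) and C7-like cells at 227 CPM (196 to 262), whose intervals overlap. Lower levels were found in C4-like cells (142 CPM), C5-like cells (115 CPM) and C3-like cells (51.7 CPM, 44.6 to 59.7). So the C3-like class was high for Bcl2a1b in the thymus and low in the liver. The hepatic to thymic ratio within C3-like cells was 0.247 (0.196 to 0.312) for Bcl2a1b and 0.148 (0.103 to 0.212) for Bcl2a1d, the reverse of the ratio over all cells. Within C6-like cells, Bcl2a1b was 2.08-fold higher in the liver (1.61 to 2.73), and Bcl2a1d had a ratio of 1.08 (0.775 to 1.53). Between these classes, the stress list summed to 13999 CPM in hepatic and 6943 CPM in thymic C3-like cells, and to 22620 and 9210 CPM in C6-like cells. Its part in the result was not tested. The 6 myeloid markers summed to 332 CPM in C6-like hepatic cells, 1.86% of their level in C8-like cells, a share at which C8-like RNA would carry 8.90 CPM of Bcl2a1b against the 263 CPM measured. In C3-like thymic cells the same reckoning gave 3.17 CPM against 210 CPM, and Lyz2, Csf1r, Spi1 and Clec4f were at 0. In C1-like thymic cells it gave 2.68 CPM, beside the 2.47 CPM measured there. The reckoning takes hepatic C8-like cells as the source in both libraries and depends on the marker list. The 4 C8 markers summed to 20.7 CPM in C1-like thymic and 36325 CPM in C8-like hepatic cells. Whether such RNA was present in any of these groups was not tested.

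The copies moved together but not in a fixed proportion. Bcl2a1b took 73.3% (72.0% to 74.5%) of the UMIs of Bcl2a1b and Bcl2a1d in hepatic cells and 61.6% (56.7% to 66.3%) in thymic cells. Among hepatic groups, leaving out the S1pr1-Cd200 cells with 10 UMIs of both copies, its share ran from 66.8% in C8-like to 79.5% (77.0% to 81.9%) in C5-like cells, with 69.3% (67.0% to 71.5%) in C4-like cells. The intervals of C4-like and C5-like cells do not overlap. Bcl2a1a had 138 CPM in C8-like, 26.5 CPM in C6-like hepatic and 21.7 CPM in C6-like thymic cells, and at most 4.75 CPM in the other 11 groups. Bcl2a1c was at most 12.1 CPM, in C8-like cells. Summed over all 4 copies, which does not depend on how reads were divided among them but would miss any left out as ambiguous, the level was 4.58 CPM (3.26 to 6.26) in C1-like, 4.58 CPM (2.56 to 7.55) in S1pr1-Cd200 and 6.82 CPM (4.53 to 9.86) in cycling-like thymic cells. It was 324 CPM (280.5 to 373) in C3-like and 237 CPM (196 to 283) in C6-like thymic cells. The hepatic sums rose from 45.0 CPM in S1pr1-Cd200 and 69.5 CPM in C3-like cells over 124 CPM (interferon-like), 147 CPM (C5-like), 182 CPM (cycling-like), 209 CPM (C4-like) and 300.2 CPM (C7-like) to 385 CPM in C6-like and 866 CPM in C8-like cells. Of the 931 hepatic cells with a Bcl2a1d UMI, 46.7% also had a Bcl2a1b UMI, against 21.9% of the other hepatic cells. These shares pool the classes and use cells that were not thinned. Within C5-like hepatic cells they were 36.3% and 21.2%, within C4-like cells 42.1% and 22.6%, and within C3-like cells 43.8% and 9.36%.

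**Figure D3:**
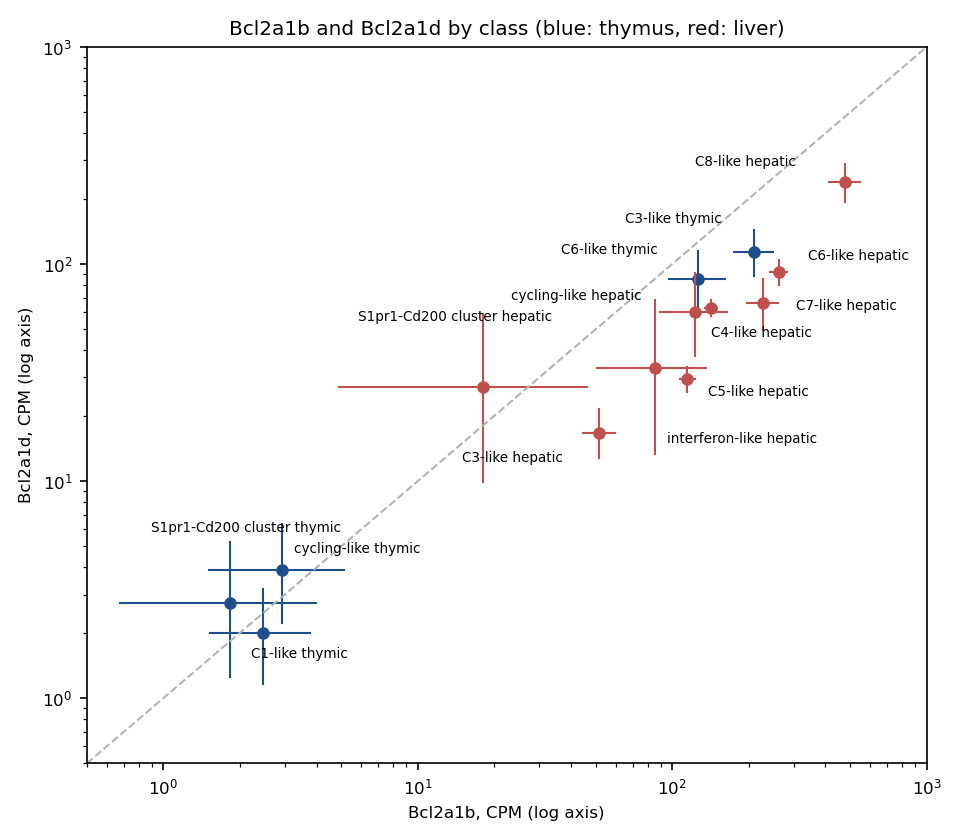
Bcl2a1d against Bcl2a1b, both in CPM on log axes, in the 14 class and library groups, blue for thymus and red for liver. Bars are exact Poisson 95% intervals and the dashed line marks equal levels. The C1-like, S1pr1-Cd200 and cycling-like thymic groups lie under 4 CPM on both axes, and the C8-like hepatic cells lie highest, at 478 and 238 CPM.

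Bcl2l1 (chr2:152780668-152831728, minus strand), the gene of Bcl-xL, was highest in C4-like hepatic cells at 45.5 CPM and C5-like hepatic cells at 43.4 CPM, a ratio of 0.953 (0.820 to 1.11). C6-like, C3-like and C7-like hepatic cells had 23.7, 22.7 and 22.4 CPM. The 5 thymic groups lay between 11.8 and 14.1 CPM, with overlapping intervals. Mcl1 (chr3:95658788-95663176, plus strand), whose protein is short-lived and guards against Bak1, was highest in the C8-like cells at 366 CPM. Among the other groups it was highest in S1pr1-Cd200 thymic cells at 124 CPM and C1-like cells at 115 CPM, and the remaining 11 groups lay between 35.4 and 85.5 CPM. Mcl1 was thus higher in the immature thymic cells than in C3-like thymic cells (66.6 CPM), which were at 0.578-fold of the C1-like level (0.410 to 0.793).

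The effectors varied least, though both overlap other genes. Bax shares 192 exonic bases with Gm45808 on the same strand, and Bak1 shares 437 with Ggnbp1 on the other strand, which had 13 hepatic and 25 thymic UMIs. Bax (chr7:45461697-45466898, minus strand) ran from 145 CPM in C1-like thymic cells to 226 CPM in C8-like cells, a 1.55-fold range over the 14 groups, and every neighbour in the order overlapped the next. C6-like thymic cells had 225 CPM and C3-like thymic cells 160 CPM, a ratio of 1.41 (1.06 to 1.87). Bak1 (chr17:27019810-27029009, minus strand) ran from 27.0 CPM in S1pr1-Cd200 hepatic cells to 80.8 CPM in interferon-like cells. It had 61.4 CPM in cycling-like and 41.6 CPM in C1-like thymic cells, a ratio of 1.48 (1.25 to 1.74). Neither effector was 2-fold apart in any of the 12 comparisons.

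Bcl2l11 (chr2:128126038-128162547, plus strand), which encodes Bim, was highest in C1-like thymic cells at 145 CPM (137 to 154), above the S1pr1-Cd200 thymic cells at 84.2 CPM (74.6 to 94.8). The next groups, C5-like hepatic (72.1 CPM), C3-like thymic (61.6 CPM) and C3-like hepatic cells (58.9 CPM), did not differ from their neighbours beyond counting error. C6-like cells were lowest, with 26.1 CPM in the liver and 15.8 CPM in the thymus. The C1-like cells consisted of a cluster of 1449 cells led by Tnfsf11 and Hes1 and a cluster of 975 cells led by Tox2, Cpa3 and Dntt, here called Hes1-led and Tox2-led. Bcl2l11 had 229 CPM (214 to 244) in the Hes1-led and 68.2 CPM (60.8 to 76.4) in the Tox2-led cells, a ratio of 3.35 (2.94 to 3.83). A thinned share of 28.5% of the Hes1-led cells (26.2% to 30.9%) and 11.1% of the Tox2-led cells (9.18% to 13.2%) carried a Bcl2l11 UMI. Of the 8 members with at least 50 UMIs in this comparison, 1 was at least 2-fold higher and 0 lower, where 3.27% and 2.36% of 8035 genes were. Bcl2 went the other way, with 126 CPM in Hes1-led and 179 CPM in Tox2-led cells, a ratio of 0.707 (0.632 to 0.791). Bbc3 was 1.93-fold higher in the Hes1-led cells (1.57 to 2.39). The immediate-early and heat shock genes summed to 5076 CPM in the Hes1-led and 2795 CPM in the Tox2-led cells, and the Hes1-led cells were shallower, with a median of 0.829 of the depth of their library against 1.33. The part of either in the result was not tested. This comparison and those with the S1pr1-Cd200 cluster were added once the clusters were known. A1 transcripts, rare in both, had 18 Bcl2a1b UMIs in Hes1-led and 3 in Tox2-led cells.

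Bcl2 and Bcl2l11 were set against each other as the number of Bcl2 UMIs per Bcl2l11 UMI in each class. Capture may differ between the genes, so the value is read only between classes. It was 0.552 (0.495 to 0.615) in the Hes1-led C1-like cells, where Bcl2l11 had more UMIs than Bcl2, and 2.62 (2.29 to 3.00) in the Tox2-led cells. S1pr1-Cd200 thymic cells had 2.22 (1.92 to 2.57), C3-like thymic cells 3.30 (2.27 to 4.90) and C6-like thymic cells 4.63 (2.12 to 11.5). Hepatic C7-like cells had 8.09 (5.23 to 13.1), C4-like cells 7.42 (6.68 to 8.25), C3-like cells 6.74 (5.84 to 7.81) and C5-like cells 5.96 (5.44 to 6.53). The value was lower in C6-like cells, at 3.32 (2.51 to 4.46), and C8-like cells, at 2.00 (1.16 to 3.56). The Hes1-led interval lay below those of all other groups.

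**Figure D4:**
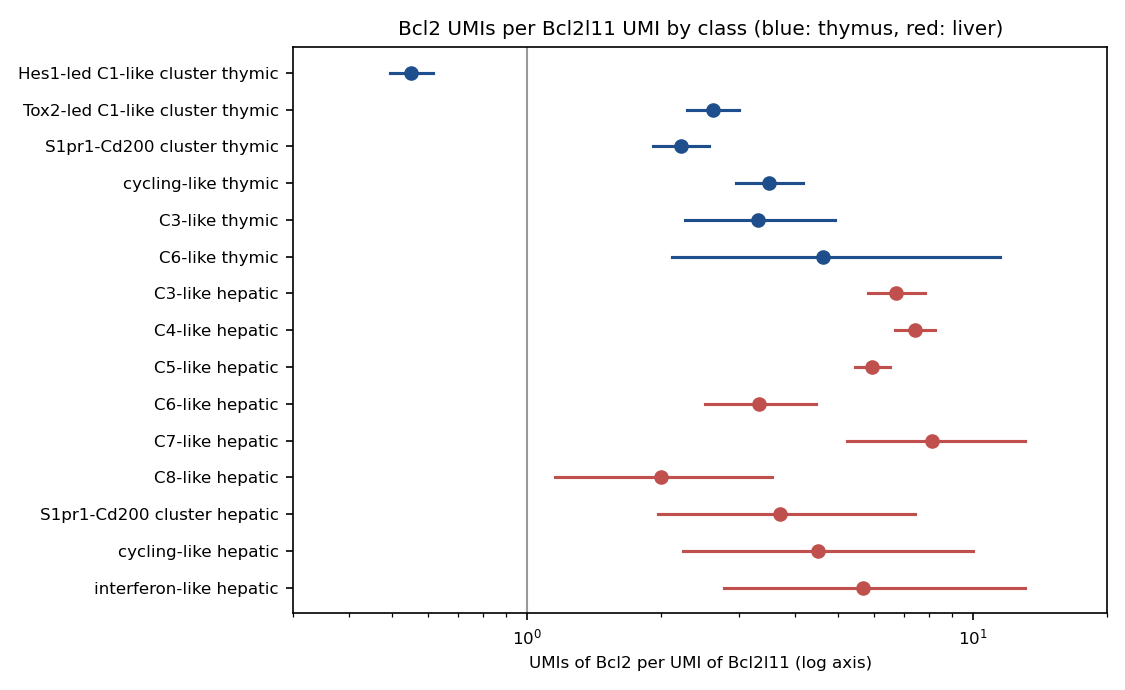
UMIs of Bcl2 per UMI of Bcl2l11 (log axis) by class and library, with the 2 C1-like clusters shown apart, blue for thymus and red for liver. Points are ratios, bars exact binomial 95% intervals, and the line marks equal numbers. The Hes1-led C1-like cells, at 0.552, are the only group under 1.

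Pmaip1, the gene of Noxa, had 252 CPM (206 to 306) in the C8-like cells, far above 58.9 CPM in C7-like and 51.3 CPM in C6-like hepatic cells. C3-like cells had 23.3 CPM in the thymus and 20.8 CPM in the liver. C1-like and cycling-like thymic cells were lowest, at 6.11 and 6.82 CPM. Bbc3 (chr7:16308393-16318205, plus strand), the gene of Puma, was at 77.6 CPM (53.1 to 110) in the C8-like cells and 63.3 CPM (57.8 to 69.2) in C5-like cells, which overlap. C1-like thymic cells had 47.5 CPM, S1pr1-Cd200 thymic cells 45.2 CPM and C4-like hepatic cells 25.7 CPM. Cycling-like cells had 17.8 CPM in the thymus and 16.3 CPM in the liver.

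Along the thymic classes, C3-like against C1-like cells asks how the family differs between precursor-like and immature cells. Of the 10 genes, 3 were at least 2-fold higher (Bcl2a1b, Bcl2a1d and Pmaip1) and 2 at least 2-fold lower (Bcl2l11 and Bbc3), where 5.77% of 8215 genes were higher and 20.3% lower. The count of lower members thus lies near the share over all genes. Pmaip1 rested on 14 UMIs in C3-like cells, with a ratio of 3.81 (1.95 to 6.98). Bcl2l11 was at 0.424-fold of the C1-like level (0.297 to 0.587) and Bbc3 at 0.456-fold (0.241 to 0.788). The C1-like level joins the Hes1-led and Tox2-led cells, and both genes were higher in the Hes1-led cells. The Bcl2l11 interval of C3-like thymic cells (43.3 to 84.9 CPM) overlaps that of the Tox2-led cells. Thinned to 1500 UMIs, 8 genes were measured and 1 was higher and 2 lower. Bcl2 differed little, at 1.32-fold (1.09 to 1.59).

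The S1pr1-Cd200 cluster stood close to the C1-like cells for most members. Against them, 1 of 8 genes was at least 2-fold higher (Pmaip1, 2.50-fold, 1.66 to 3.76) and 0 lower, where 3.80% and 3.48% of 8739 genes were. Bcl2l11 was at 0.580-fold of the joined C1-like level (0.507 to 0.661), but its interval in this cluster overlaps that of the Tox2-led C1-like cells. C3-like thymic cells against this cluster had 2 members at least 2-fold higher (Bcl2a1b and Bcl2a1d) and 1 lower (Bbc3), against 2.78% and 14.2% of 6270 genes. The count of lower members lies near that share. The 6 Bcl2a1b UMIs of the cluster made the ratio 114 (51.2 to 318). The erythroid markers (4 hemoglobin genes and Alas2) summed to 301 CPM in the thymic cells of this cluster and to 30.9 to 49.3 CPM in the other thymic groups, and their part was not tested.

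Cycling-like against C1-like thymic cells had 0 of 8 genes at least 2-fold higher and 2 lower, Bcl2l11 at 0.287-fold (0.243 to 0.337) and Bbc3 at 0.375-fold (0.288 to 0.482), where 8.80% and 8.40% of 8909 genes were. Both lower genes encode BH3-only proteins. They were also higher in Hes1-led than in Tox2-led C1-like cells, so the difference from the Tox2-led cells alone would be smaller. That ratio was not computed. Bcl2 did not differ beyond counting error, at 0.95-fold (0.861 to 1.05). C6-like against C3-like thymic cells had 0 of 6 genes higher and 1 lower, Bcl2 at 0.360-fold (0.242 to 0.524), where 9.43% and 4.19% of 2652 genes were. Bcl2l11 fell short of 50 UMIs there, with 8 UMIs in C6-like and 37 in C3-like cells.

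Between the tissues within a class, C3-like cells had 0 of 10 genes at least 2-fold higher in the liver and 2 lower (Bcl2a1b and Bcl2a1d), where 5.01% and 3.75% of 5846 genes were. C6-like cells had 3 of 10 higher (Bcl2a1b, Pmaip1 and Bbc3) and 0 lower, where 6.18% and 2.29% of 5245 genes were. In C6-like cells Pmaip1 had 51.3 CPM in the liver and 13.8 CPM in the thymus, a ratio of 3.71 (1.75 to 9.43), and Bbc3 a ratio of 2.28 (1.15 to 5.13). Both rest on under 10 thymic UMIs. The stress genes moved with these cells too, with 11 of 13 at least 2-fold higher in hepatic C6-like cells and 6 of 13 in hepatic C3-like cells.

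Among hepatic classes, C5-like and C4-like cells were under 2-fold apart in 8 members. Of the 10 genes, 1 was at least 2-fold higher in C5-like cells, Bbc3 at 2.46-fold (2.09 to 2.91), and 1 lower, Bcl2a1d at 0.469-fold (0.40 to 0.55), where 2.52% and 2.71% of 8921 genes were. Bcl2a1b had a ratio of 0.808 (0.739 to 0.882). C6-like against C5-like hepatic cells had 3 of 10 genes higher and 2 lower, against 7.71% and 8.42% of 8273 genes. Pmaip1 was 3.25-fold (2.51 to 4.20), Bcl2a1d 3.10-fold (2.57 to 3.74) and Bcl2a1b 2.29-fold higher (2.07 to 2.54), while Bcl2 was at 0.202-fold (0.175 to 0.231) and Bcl2l11 at 0.362-fold (0.275 to 0.468). Hepatic C6-like cells were thus higher than C5-like cells in A1 and Noxa transcripts and lower in Bcl2 and Bim transcripts. C3-like against C5-like hepatic cells had 0 of 10 genes higher and 1 lower, Bcl2a1b at 0.451-fold (0.384 to 0.529), where 3.55% and 8.19% of 8356 genes were. This last count lies near the share over all genes and varied from 0 to 3 with the settings.

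The other genes of the pathway were counted from lists set by function. In hepatic against thymic cells, 5 of 11 survival cytokine genes were at least 2-fold higher and 1 lower. Over all 10869 genes the shares were 12.1% and 16.9%. Il2rb, the receptor chain shared by interleukins 2 and 15, had 396 CPM in hepatic and 44.7 CPM in thymic cells (8.85-fold), and Cish, a target of STAT5, was 11.3-fold higher. Of 3 measured other anti-apoptotic genes, Bcl2a1c (7.48-fold) and Bcl2a1a (5.50-fold) were higher and Bcl2l2 was at 0.333-fold. Of 10 death receptor genes, 4 were higher and 0 lower, led by Fasl, the death ligand of cytotoxic cells, at 95.7 and 2.99 CPM (32.04-fold). In the caspase pathway list, Casp9, the initiator caspase of the mitochondrial pathway, was 2.15-fold and Endog 2.12-fold higher. Among other pro-apoptotic family genes, Bid was 4.34-fold and Bik 4.30-fold higher and Bmf was at 0.222-fold, on 2 higher and 1 lower of 4 measured. Of 12 p53 pathway genes, 1 was higher, the cell cycle inhibitor Cdkn1a, at 13.9-fold. In the NF-kappaB list 0 of 8 were higher and 1 lower, Rel at 0.470-fold. In the FoxO and AKT list 1 of 7 was higher (Txnip, 7.53-fold) and 1 lower (Pik3ip1, 0.318-fold). The counts of the p53, NF-kappaB and FoxO and AKT lists lie near the shares over all genes.

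Within the thymus, C3-like against C1-like cells had 4 of 10 measured survival cytokine genes at least 2-fold higher and 1 lower. Over all 8215 genes the shares were 5.77% and 20.3%. Il2rb was 17.6-fold (13.7 to 22.6) and Il7r, the receptor of interleukin 7, 8.51-fold higher (6.95 to 10.4). Nfkbia was the 1 of 8 NF-kappaB genes at least 2-fold higher (2.28-fold) and 0 were lower. Of 11 measured immediate-early and heat shock genes, 6 were at least 2-fold higher, led by Fosb (4.52-fold), Jun (3.45-fold) and Dusp1 (2.67-fold), and 2 were lower, Egr1 (0.192-fold) and Nr4a1 (0.228-fold). In C6-like against C5-like hepatic cells, Il7r was 44.4-fold higher and Il2rb at 0.393-fold, with 1 higher and 3 lower of 11 survival cytokine genes. There, 2 of 8 NF-kappaB genes were higher, Nfkbia (4.72-fold) and Nfkb1 (3.00-fold), and 0 were lower. Over all 8273 genes in that comparison the shares were 7.71% and 8.42%.

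Likeness across classes was measured as Pearson's r of log2(CPM + 10) over the 14 class and library groups, which share libraries and differ in depth, so it is a description. Bcl2a1b was most like Bcl2a1d (r = 0.948), Ncf4 (0.934) and Cd44 (0.921). These genes were all highest in the C8-like cells, and the near-identical copies may share reads. Bcl2 was most like Ugcg (0.888), Il21r (0.886) and Gimap6 (0.866). Bcl2l11 was most like H3f3b (0.869), Prkcb (0.832) and Eif2ak3 (0.820). Mcl1 and Pmaip1, both highest in the C8-like cells, were most like Sec14l1 (0.932) and Mt1 (0.931). The remaining members had their highest r between 0.829 (Bbc3 with Susd6) and 0.918 (Bcl2a1d with Syngr2, after Bcl2a1b). Among pairs of members, Bcl2a1b with Bcl2a1d had the highest r, and the lowest were those of Bcl2l11 with Bcl2a1d and with Bax (both -0.564).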

How the data were processed

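Droplet 3′ RNA sequencing covered 1 library of hepatic and 1 of thymic γδ T cells. The authors aligned and counted with Cell Ranger on mm10, per the submitters' processing notes (versions not given in the sources used here), and the deposited values are UMI counts for each gene in each barcode, not normalized. Cells with 800 to 4000 genes and at most 6% mitochondrial UMIs were kept. Cells of both tissues were clustered jointly (Seurat 5.3.0, R 4.3.3) on 2000 variable genes, of which 1970 remained without the members and pathway genes, 30 principal components and resolution 0.6. Clusters were named by the marker list with the greatest average log2 ratio over the remaining clusters (at least 0.5, leading by 0.2, with at least 3 markers detected), unless markers of another list led it. Scrublet (scanpy 1.11.5) marked only 1 hepatic and 2 thymic cells, so its calls were not used, and doublets were kept. Whether it missed doublets was not tested. Counts were summed per class and library with at least 20 cells and scaled to CPM. Genes reaching 50 UMIs in the 2 groups combined were compared, and called at a CPM ratio of 2. There was no test, since cells are not replicates. Intervals are exact at 95%. Shares used cells thinned to 1500 UMIs (seed 11). Named were all 10 members, at most the 3 largest ratios in each direction of a list, and the 3 most alike genes reaching 50 CPM. Members and lists were chosen with earlier results of these data known. The ratio and interval code was tested on simulated data. Python 3.11.15, numpy 2.4.6, scipy 1.17.1, pandas 2.3.3, biopython 1.88 and matplotlib 3.10.9 were used. Alternatives changed the filters, clustering, doublets, minimum counts, thinning, averaging and total. One result of the caspase pathway list is not reported here.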

Additional observations from a re-analysis of the deposited data

How the results depend on the processing

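No paired analysis was possible because each tissue had 1 library, and no replicate could be left out. No ratio of a member at least 2-fold apart turned its direction. The count of members at least 2-fold apart stayed within 1.5 times in 143 recomputations and moved further in 19. C3-like against C5-like hepatic cells, with 1 member, was the least settled. It had 2 at resolution 0.4, with at least 500 genes, at most 50% ribosomal-protein UMIs, the highest Scrublet scores removed, the mean of the cells' own CPM or thinned cells, 3 at resolution 0.8, with 20 principal components, 3000 variable genes or the naming markers left out, and 0 with mitochondrial and ribosomal-protein genes out of the total, which shifted every log2 ratio there by 0.30. The same total shifted hepatic against thymic ratios by -0.14. C3-like hepatic against thymic cells had 4 members at resolution 0.8 and 1 in thinned cells, against 2. C3-like against C1-like thymic cells had 3 in thinned cells, against 5. C6-like against C3-like thymic cells had 2 with at least 500 genes or a minimum of 20 UMIs, against 1. Hes1-led against Tox2-led cells, added after the clusters were seen and not separable at resolution 0.4, had 2 with at most 10% mitochondrial UMIs, thinned cells or a minimum of 20 UMIs, against 1. The Bcl2a1d log2 ratio of C3-like hepatic to thymic cells ran from -4.17 to -2.54. The cause of the other changes was not tested. Counts of under 10 UMIs leave wide intervals.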
